A study of Mus musculus with 2 samples.

Results

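Genes of cholesterol synthesis and its control were followed through jejunal crypts: *Srebf2*, *Insig1*, *Hmgcs1*, *Idi1*, *Fdft1*, *Sqle*, *Lss* and *Cyp51*. They were taken by name as a list, and all 8 of the 8 were present among the 27998 genes of the count matrices. The cells came from 2 male mice, 12 months old, in which miR-375 had been deleted in the whole body with CRISPR/Cas9 (375KO mice). The deletion was made in FVB x B62J hybrid embryos and crossed back to B6 albino mice, the labels name the strain C57BL6/2J, and every cell of the animals carries it. Both libraries, replicate 1 and replicate 2, are 375KO, each from 1 mouse, so no genotype or treatment was compared with another, and mature miR-375 itself was not measured. The comparisons below are between cell types of the same 2 mice.

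Cells make cholesterol from acetyl-CoA through the mevalonate pathway. Its first committed steps build mevalonate, the isoprenoid branch turns this into farnesyl diphosphate, and the sterol branch joins farnesyl units into squalene and closes the rings. SREBP2, the product of *Srebf2*, is a membrane-bound transcription factor that is held in the endoplasmic reticulum by INSIG proteins when sterols are plentiful and is released to switch on these genes when sterols are scarce. Jejunal enterocytes can also take up cholesterol from the gut lumen, which makes the small intestine a tissue in which synthesis and uptake meet.

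The authors kept 2082 cells of replicate 1 and 1193 cells of replicate 2 and assigned them to 10 cell types, of which 9 are epithelial. The tenth is the intraepithelial lymphocyte (IEL). UMIs, the tags by which captured RNA molecules are counted once each, were summed per mouse and cell type, and the sums ranged from 215413 UMIs in enteroendocrine cells (EEC) of replicate 2 to 19366535 UMIs in enterocytes of replicate 1. Levels are given as CPM, in which every sum is scaled to the same total. Of 60 marker entries over the 10 types, 46 were highest in their own type in both mice, including all 6 for goblet cells, Paneth cells, enterocytes, EEC, tuft cells and IEL. The exceptions were *Ascl2* for stem cells, 4 cell-cycle or tubulin genes for transit-amplifying (TA) cells, 3 of the secretory progenitor markers and all 6 of the goblet progenitor list, most of which goblet or TA cells share. The goblet progenitor list shares *Muc2* and *Agr2* with the goblet list and *Mki67* and *Stmn1* with the TA list. It therefore says little on whether the label holds. In goblet progenitors the 6 goblet markers summed to 44408 and 50609 CPM, against 184477 and 164890 CPM in goblet cells. The 6 TA markers summed to 1557 and 1350 CPM there, against 123 and 198 CPM in goblet cells. CPM are shares of the RNA of a type, so RNA per cell was not measured, and in Paneth cells 6 markers alone took 513019 and 406387 CPM. The 2 libraries shared 0 cell barcodes.

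The control genes are described first. *Srebf2* (chr15:82147181-82205379, plus strand, all gene positions from GENCODE M21 on mm10) was the most even of the 8. In replicate 1 it measured 19.6 CPM in stem cells, 28.9 in TA cells, 23.9 in enterocytes, 15.2 in secretory progenitors, 35.6 in goblet progenitors, 34.4 in goblet cells, 8.25 in Paneth cells, 45.1 in EEC, 29.0 in tuft cells and 38.1 in IEL. In replicate 2 the same order of types gave 24.3, 42.8, 44.7, 35.7, 49.8, 31.7, 3.44, 37.1, 50.0 and 48.8 CPM. By CPM Paneth cells were below every other type in both mice, and each of the other types overlapped with the next in the order of mean level. With the TMM scaling used in the tests below, *Srebf2* had 52.8 and 28.3 CPM in Paneth cells. They were then the highest epithelial type in replicate 1 but not in replicate 2, so the place of Paneth cells depends on the scaling.

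*Insig1* (chr5:28071363-28078662, plus strand) encodes the sterol-sensing retention protein and is itself a target of SREBP2. It measured 45.5 CPM in goblet cells of replicate 1 and 17.4 CPM in those of replicate 2, against 7.85 and 3.74 CPM in stem cells. TA cells had 21.9 and 14.7 CPM, and enterocytes had 18.4 and 17.8 CPM. Goblet cells thus held several times the stem cell level in each mouse. EEC gave 45.1 CPM in replicate 1 and 0 UMIs in replicate 2, where a count of 0 of 215413 UMIs allows up to 13.9 CPM.

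*Hmgcs1* (chr13:119690379-119708260, plus strand) encodes HMG-CoA synthase, an early enzyme of the mevalonate branch. Goblet cells had 216 CPM in replicate 1 (817 UMIs, exact Poisson 95% interval 201 to 231) and 56.3 CPM in replicate 2 (126 UMIs, 46.9 to 67.1). Stem cells had 43.2 and 26.2 CPM, TA cells 90.4 and 56.7 CPM, and enterocytes 69.8 and 76.3 CPM. In replicate 1 goblet cells stood above all other epithelial types, whereas in replicate 2 enterocytes and TA cells were level with them or higher. *Idi1* (chr13:8885501-8892451, plus strand) encodes the isomerase that balances the 2 isoprenoid building blocks, and its stem cell level stood near that of goblet cells in replicate 1. Its levels were 84.9 and 50.1 CPM in goblet cells, 71.8 and 31.8 CPM in stem cells, 75.7 and 54.2 CPM in TA cells, and 45.0 and 42.4 CPM in enterocytes.

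*Fdft1* (chr14:63145150-63179578, minus strand) encodes squalene synthase, the entry to the sterol branch. It measured 71.1 and 41.1 CPM in goblet cells, 53.2 and 80.4 CPM in tuft cells, 16.8 and 18.1 CPM in stem cells and 19.9 and 25.8 CPM in enterocytes. Among the epithelial types tuft cells therefore led in replicate 2 and came second in replicate 1. *Sqle* (chr15:59315077-59331192, plus strand) encodes squalene epoxidase, the oxygen-dependent step that follows, and measured 66.6 and 23.2 CPM in goblet cells, 21.9 and 6.86 CPM in stem cells and 19.5 and 17.2 CPM in enterocytes. Tuft cells had 16.9 and 26.8 CPM of it and TA cells 39.8 and 22.9 CPM. 

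*Lss* (chr10:76531588-76557138, plus strand) encodes lanosterol synthase, which closes the rings, and had the fewest UMIs of the 8. Goblet cells gave 59 and 21 UMIs of it (15.6 and 9.39 CPM), stem cells 7 and 8 UMIs (3.92 and 4.99 CPM). In replicate 2 tuft cells (12.5 CPM), TA cells (10.7 CPM) and goblet progenitors (9.60 CPM) stood above goblet cells, and in replicate 1 no epithelial type did. *Cyp51* (chr5:4081145-4104746, minus strand) encodes the demethylase that acts on lanosterol. It measured 119 and 54.1 CPM in goblet cells, 35.3 and 10.6 CPM in stem cells, 46.4 and 26.1 CPM in TA cells and 49.5 and 38.3 CPM in enterocytes. *Cyp51* was the only gene of the 8 that was highest in goblet cells, among the 9 epithelial types, in both mice. Of the 160 values of gene, type and mouse, 35 rested on fewer than 10 UMIs, and these were mostly in secretory progenitors and EEC.

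**Figure D1:**
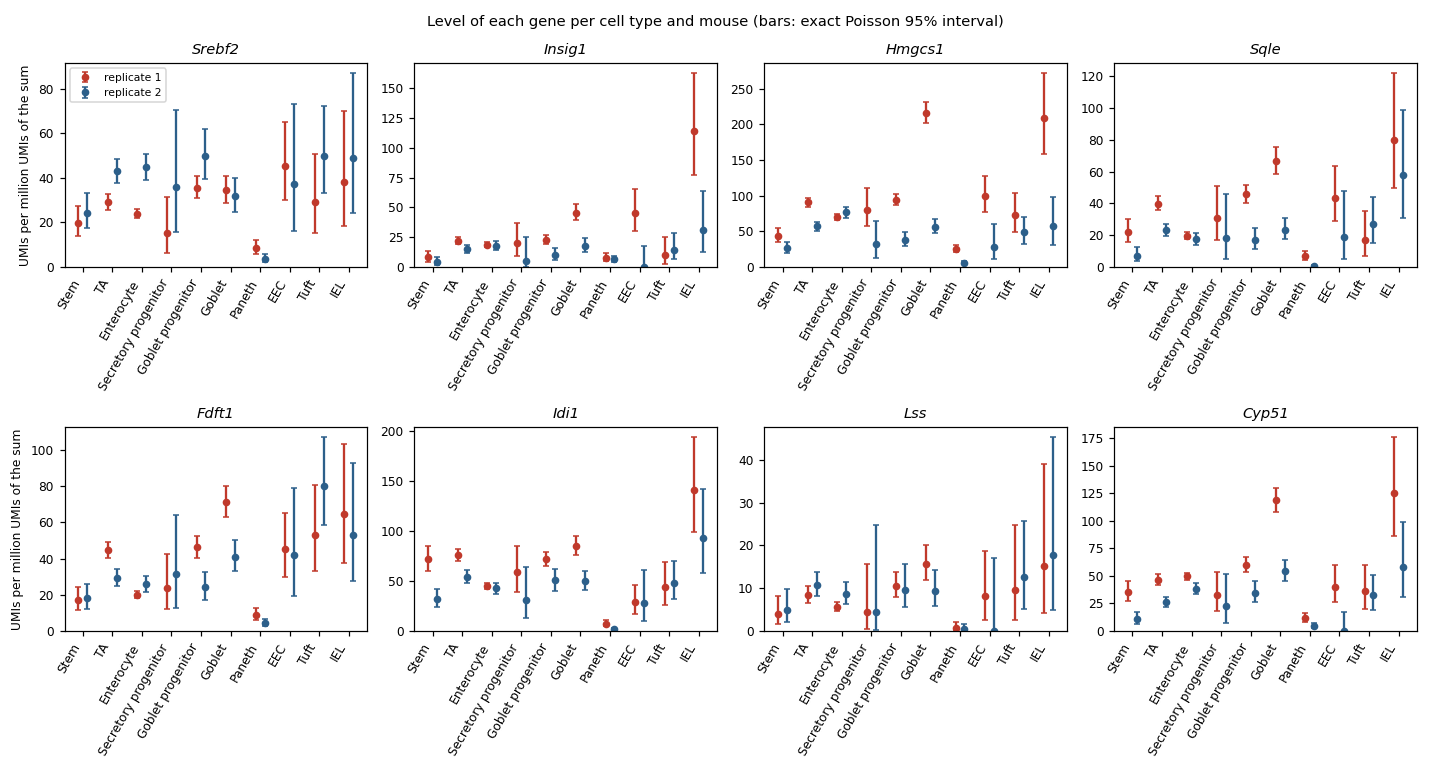
CPM (y axis) of each of the 8 genes in 10 annotated cell types (x axis), with red points for replicate 1, blue points for replicate 2 and bars for exact Poisson 95% intervals, which cover counting error only. Goblet cells of replicate 1 stand above the other epithelial types for 7 of the 8 genes, and Paneth cells lie near 0.

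By CPM within 1 mouse, goblet cells were the highest epithelial type for 7 of the 8 genes in replicate 1 (all but *Srebf2*) and for 1 of the 8, *Cyp51*, in replicate 2. Leaving Paneth cells aside, stem cells were the lowest epithelial type for 4 of the 8 in each mouse, but not for the same 4. These were *Insig1*, *Hmgcs1*, *Fdft1* and *Lss* in replicate 1 and *Srebf2*, *Hmgcs1*, *Sqle* and *Fdft1* in replicate 2. Only *Hmgcs1* and *Fdft1* were thus lowest in stem cells in both mice. When the 10 types were ordered by mean CPM, 62 of 72 neighbouring pairs had mice that overlapped, so most single steps in the order did not exceed the spread between the mice. Such counts were not made over all genes and serve as description only. By CPM IEL exceeded goblet cells for 5 of the 8 genes in replicate 1 and for all 8 in replicate 2. For *Idi1* IEL had 141 and 93.2 CPM, and for *Insig1* 114 and 31.1 CPM. These values come from 50 and 18 cells and were not tested. IEL hold 2 numbered clusters, and in replicate 1 *Insig1* had 189.6 CPM in number 14 (22 cells) and 67.7 CPM in number 11 (28 cells).

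The annotation was made from the same cells, so the tests below say how far the annotated types stand apart. All tests were made with the quasi-likelihood method of edgeR on the 18 sums of the 9 epithelial types, with the mouse as a term and TMM scaling, and P values were adjusted over 11013 genes by the Benjamini-Hochberg method. All 8 genes differed between types (edgeR adjusted P between 3.5e-08 for *Cyp51* and 0.029 for *Srebf2*), where 77.3% of all genes did. Without the mouse as a term 3 of the 8 passed, and with each cell thinned to 5000 UMIs 5 of the 7 that could be tested did. Of all genes, 5692 of 11013 and 6003 of 8236 passed in these fits.

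Goblet cells, the mucus-secreting cells of the epithelium, showed the clearest pattern. Against the mean of the other 8 types 7 of the 8 genes were higher, where 17.8% of all genes were. The largest differences were for *Cyp51* (log2 fold change 1.68 ± 0.17 SE, edgeR adjusted P = 4.26e-09), *Lss* (1.40 ± 0.29, edgeR adjusted P = 0.00027) and *Hmgcs1* (1.37 ± 0.28, edgeR adjusted P = 0.00446). *Sqle* was higher by 1.29, *Insig1* by 1.26, *Fdft1* by 1.13 and *Idi1* by 0.998 on the log2 scale. *Srebf2*, whose product drives the others, gave 0.40 ± 0.20 and did not pass (edgeR adjusted P = 0.138). All 8 values were above 0 in each mouse alone. The median of the 8 was 1.27, beside a median of -0.03 for all genes.

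Goblet cells were next set against each single type, which was added once the data had been examined. Against stem cells 8 of the 8 genes were higher in goblet cells (19.6% of all genes), against TA cells 7 (21.4%), against enterocytes 6 (19.8%), against goblet progenitors 6 (15.9%), against EEC 5 (14%), against tuft cells 4 (12.6%), against secretory progenitors 3 (9.75%) and against Paneth cells 1 (9.88%). None was lower. With library totals in place of TMM factors these counts became 6 against stem cells, 3 against TA cells, 6 against enterocytes and 2 against goblet progenitors. The shares of all genes were then 12.4%, 12.8%, 16.8% and 6.24%. Without the mouse as a term the counts became 5, 2, 1 and 1, beside 11.5%, 12.6%, 11.3% and 4.49% of all genes. In replicate 2 alone the values of *Srebf2* and *Hmgcs1* were not above those of enterocytes, and 6 of the 8 genes were above 0.

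Goblet cells differed from the other types in more than these genes. Their 6 markers took 184477 and 164890 CPM of the sums, their median mitochondrial percent was 5.78 and 3.05, against 10.2 and 5.90 in stem cells and 13.2 and 7.59 in enterocytes, and their median depth was 13649 and 15708.5 UMIs, against 12282 and 12559 UMIs in stem cells. The 6 Paneth cell markers summed to 5754 and 5690 CPM in goblet cells, and 6 markers of stromal, endothelial and blood cells to 1.06 and 10.7 CPM. The part of these in the result was not tested. With the sums restricted to cells with at least 2000 genes and at most 15% mitochondrial reads, 7 of the 8 genes were higher. With Paneth cells left out all 8 were. Of all genes tested, 2029 of 10742 and 2360 of 10801 were higher in these fits, in that order.

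Stem cells lay at the other end. Against the mean of the other 8 types 4 of the 8 genes were lower, where 10.2% of all genes were, and none was higher. *Insig1* fell by 1.90 on the log2 scale (SE 0.42, edgeR adjusted P = 0.00197), *Fdft1* by 1.20 (SE 0.26, edgeR adjusted P = 0.00103), *Cyp51* by 0.91 (SE 0.24, edgeR adjusted P = 0.00624) and *Srebf2* by 0.74 (SE 0.24, edgeR adjusted P = 0.0253). *Hmgcs1* gave -1.15 ± 0.40 (edgeR adjusted P = 0.0598), *Sqle* -0.98 ± 0.39 and *Lss* -0.77 ± 0.44, which did not pass. *Idi1* gave 0.12 ± 0.19, and its sign differed between the mice. The other 7 were below 0 in each mouse. Without the mouse as a term 1 gene passed, and with library totals 2 did, or 5 when Paneth cells were also left out. Of all genes, 451 of 11013, 499 of 11013 and 1178 of 10801 were lower in these fits.

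**Figure D2:**
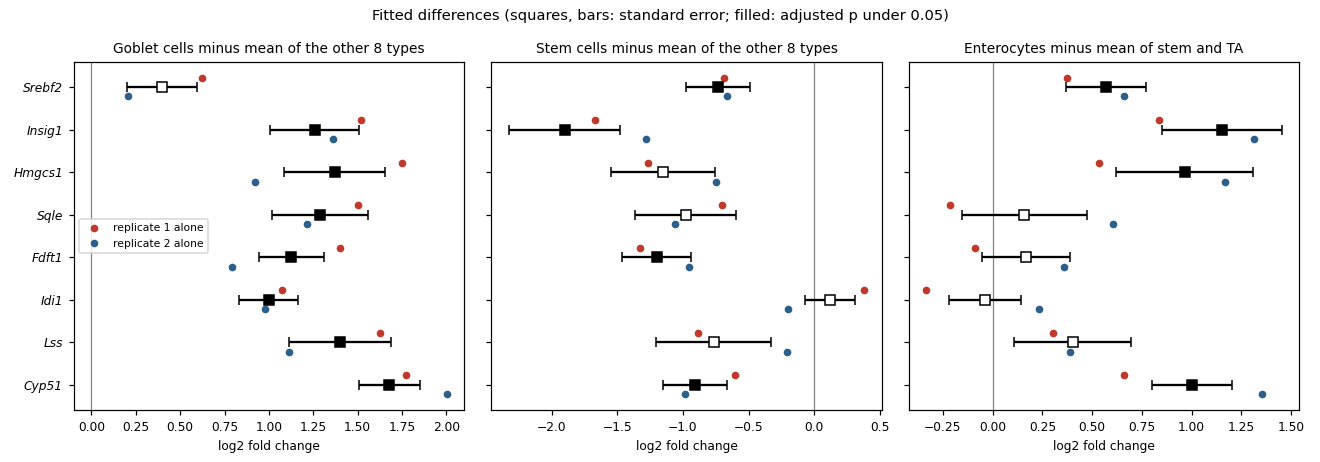
Log2 fold change (x axis) of the 8 genes (y axis) in goblet cells against the mean of the other 8 types, in stem cells against the mean of the other 8, and in enterocytes against the mean of stem and TA cells. Squares are the edgeR values with SE bars, filled where the adjusted P is under 0.05, and red and blue points are each mouse alone. The goblet cell values all lie above 0 and the stem cell values, except that of *Idi1*, below it.

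Along the absorptive line the change was uneven. In enterocytes against the mean of stem and TA cells 4 of the 8 genes were higher, where 31.9% of all genes were: *Insig1* (1.15 ± 0.30, edgeR adjusted P = 0.00247), *Cyp51* (1.002 ± 0.20, edgeR adjusted P = 9.62e-05), *Hmgcs1* (0.97 ± 0.34, edgeR adjusted P = 0.035) and *Srebf2* (0.57 ± 0.20, edgeR adjusted P = 0.0155). *Lss* gave 0.40 ± 0.29, *Fdft1* 0.17 ± 0.22, *Sqle* 0.16 ± 0.32 and *Idi1* -0.04 ± 0.18, and none of these passed. The median of the 8 was 0.49, beside 0.06 for all genes. The values of *Sqle*, *Fdft1* and *Idi1* differed in sign between the mice. By plain CPM enterocytes were above stem cells for all 4 called genes in both mice, but above TA cells in both mice only for *Cyp51*, since TA cells of replicate 1 had more *Insig1*, *Hmgcs1* and *Srebf2*. With library totals 2 genes passed (*Cyp51* and *Insig1*), the median of the 8 was 0.14 and that of all genes -0.28. Without the mouse as a term none passed. Of all 11013 genes, 2270 were higher with library totals and 2199 without the mouse as a term.

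The numbered clusters of the authors show where within a type the levels lay, as a description with no test, since the clusters were made from the same expression values. Among the 4 TA clusters, number 8, which had the highest enterocyte marker sum in both mice, had the highest levels of *Insig1* (38.1 and 26.3 CPM), *Sqle* (67.2 and 41.5 CPM) and *Fdft1* (64.4 and 61.1 CPM). TA clusters 10 and 13 lay nearer to stem cells, with 25.1 and 10.6 CPM and 21.3 and 11.6 CPM of *Sqle*. Of the 5 enterocyte clusters, number 9 held the most *Sqle*, 51.8 and 40.6 CPM. Cluster 1, with the highest sum of enterocyte markers in both mice, had 5.91 and 12.5 CPM of it, and 20.6 and 26.1 CPM of *Idi1*. Enterocyte values in the fits are therefore averages over clusters that differed several fold, and 282 of 931 enterocytes of replicate 1 were in cluster 1, against 72 of 382 in replicate 2.

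**Figure D3:**
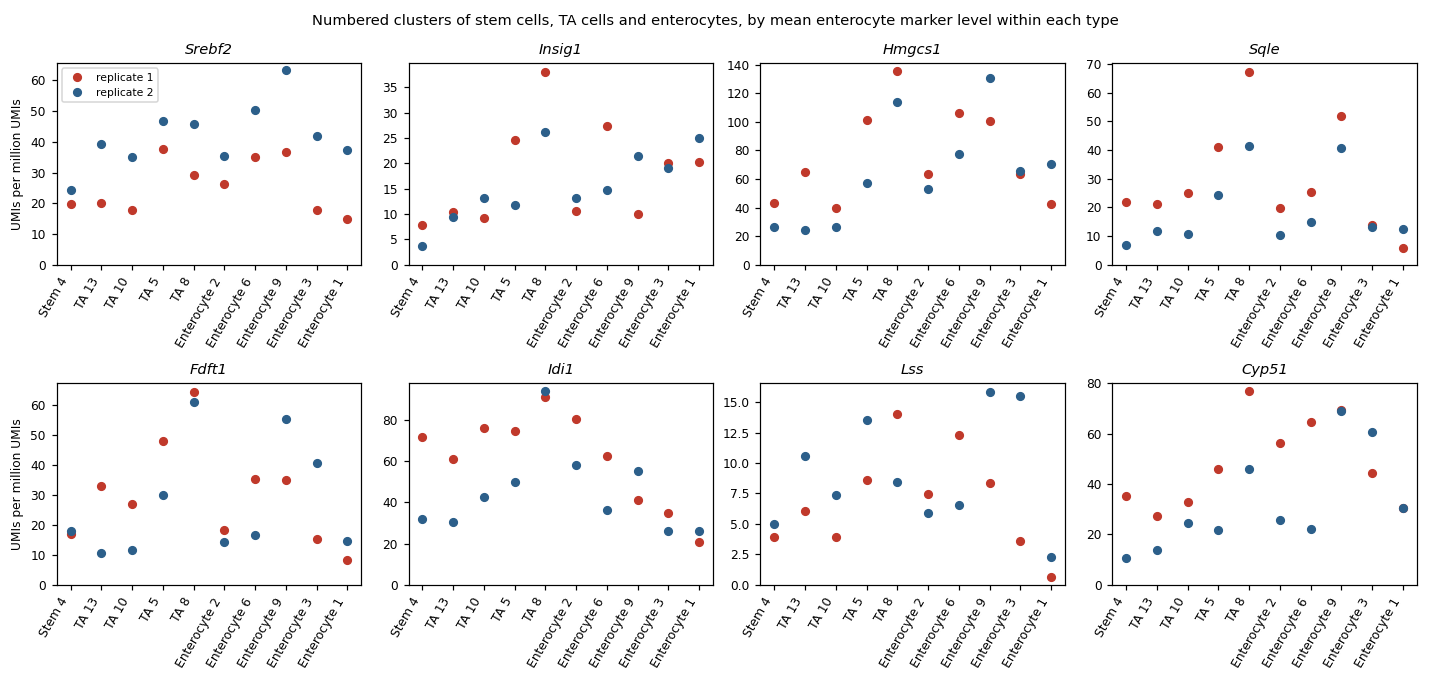
CPM (y axis) of the 8 genes in the authors' numbered clusters of stem cells, TA cells and enterocytes (x axis), ordered within each type by the mean CPM of 6 enterocyte markers, with red points for replicate 1 and blue points for replicate 2. *Sqle* and *Fdft1* are high in TA cluster 8 and enterocyte cluster 9 and low in enterocyte cluster 1.

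Paneth, enteroendocrine and tuft cells gave results that rested on scaling or few UMIs. With TMM factors, which were 0.156 and 0.121 for Paneth cells and between 0.954 and 1.58 for the other sums, *Insig1* (2.03 ± 0.37) and *Cyp51* (0.97 ± 0.28) were called higher in Paneth cells, where 15.5% of all genes were. With library totals 8 of the 8 genes were called lower there, *Insig1* with -1.17. So were 9676 of all 11013 genes, and the median of all genes was -3.20. The direction of *Insig1* and *Cyp51* in Paneth cells therefore depends on the scaling. So does that of *Srebf2*, *Hmgcs1*, *Sqle* and *Fdft1*, which were not called there with TMM factors. In EEC *Idi1* fell by 1.24 (SE 0.33) and *Cyp51* by 1.03 (SE 0.35), where 8.07% of all genes were lower, and *Cyp51* had 25 UMIs in replicate 1 and 0 in replicate 2. Neither passed with library totals. In tuft cells *Fdft1* was higher by 0.81 ± 0.27 (edgeR adjusted P = 0.0374), where 10.1% of all genes were higher, with 22 and 45 UMIs. *Fdft1* was lower and *Cyp51* higher in enterocytes than in the mean of the other 8 types, by -0.48 ± 0.19 and 0.54 ± 0.17, where 23.2% of all genes were lower and 31.3% higher. In TA cells, secretory progenitors and goblet progenitors none of the 8 passed in edgeR with TMM scaling or in DESeq2, where 19.1%, 3.58% and 8.82% of all genes were higher and 13.6%, 1.24% and 3.21% lower, and 1 gene, *Idi1* in TA cells (0.38), had an unadjusted P under 0.05 in edgeR. With library totals in edgeR 2 were higher in TA cells (*Idi1* and *Lss*) and 4 in goblet progenitors (*Idi1*, *Srebf2*, *Cyp51* and *Lss*). Of all 11013 genes, 5988 were then higher in TA cells and 5506 in goblet progenitors, so these calls do not set the 8 apart.

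*Insig1* and most of the enzymes differed between the mice in the direction opposite to *Srebf2*. Over all epithelial UMIs *Sqle* had 30.2 CPM in replicate 1 and 15.4 in replicate 2, *Cyp51* 52.1 and 27.0, *Hmgcs1* 85.3 and 46.7, and *Insig1* 20.9 and 12.6, whereas *Srebf2* had 26.0 and 33.5. With the 9 epithelial types weighted alike the ratio of replicate 1 to replicate 2 was 2.24 for *Insig1*, 2.17 for *Hmgcs1*, 1.93 for *Sqle* and for *Cyp51*, 1.44 for *Idi1*, 1.11 for *Fdft1*, 1.10 for *Lss* and 0.75 for *Srebf2*. The ratio reached 1.5 for 4 of the 8 genes, where 19.6% of all genes reached it, and the median ratio of all genes was 1.11. *Cyp51* was higher in replicate 1 in 9 of 9 epithelial types, and *Insig1*, *Hmgcs1*, *Sqle* and *Idi1* in 8 of 9, while *Srebf2* was higher in replicate 2 in 6 of 9. *Fdft1* was higher in replicate 1 in 5 of 9 and *Lss* in 4 of 9, and *Lss* had 7.20 and 7.38 CPM over all epithelial UMIs. For *Hmgcs1* the mice stood far apart in goblet cells, with 216 and 56.3 CPM, and close together in enterocytes, with 69.8 and 76.3 CPM. Each mouse has 1 library, so the animal and its library cannot be told apart and no test was made.

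**Figure D4:**
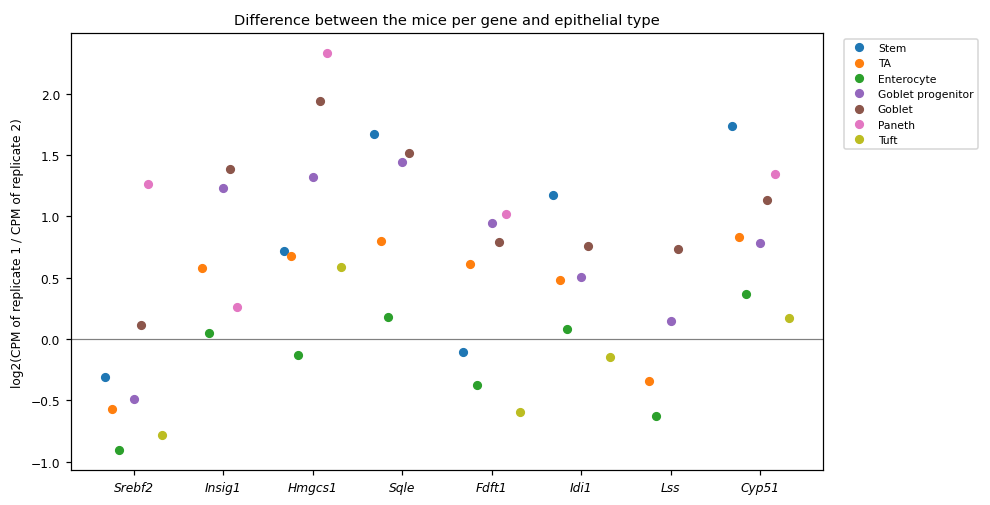
Log2 ratio of CPM in replicate 1 to CPM in replicate 2 (y axis) for each of the 8 genes (x axis), with 1 point for each epithelial type that had at least 10 UMIs of the gene in both mice, colored by type. Secretory progenitors and EEC have no point. Most points of *Cyp51*, *Sqle*, *Hmgcs1*, *Insig1* and *Idi1* lie above 0, and most of *Srebf2* below it.

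The 8 genes did not all vary together. Over the 18 sums the correlation of TMM-scaled log2 CPM between 2 of them had a median of 0.41 over 28 pairs, from 0.03 to 0.89, the highest being that of *Insig1* and *Cyp51*. The sums of 1 mouse share a library and Paneth cells carry extreme scaling factors, and without Paneth cells the median was 0.58. The genes with a pattern most like the mean of the 8, among 11005 others, were *Fut8*, *Mia3*, *Aacs*, *Athl1*, *Ugp2*, *Tmem115*, *Pdxdc1*, *Tm9sf2*, *Ocel1* and *Wdr44*, with correlations from 0.84 to 0.81 over the 18 sums. *Aacs* encodes a cytosolic ligase that feeds acetoacetate into lipid synthesis, *Fut8* a fucosyltransferase and *Mia3* a cargo receptor for large secreted proteins. Of 38 other listed genes of lipid metabolism that were tested, 4 were within the first 100. These were the sterol branch genes *Msmo1* (rank 13), *Ebp* (24) and *Nsdhl* (67) and the mevalonate gene *Fdps* (27). Without Paneth cells 4 of the first 10 remained there.

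The rest of the pathway was read from lists of its genes. In goblet cells, beside the 17.8% of all genes that were higher, 3 of 6 other mevalonate genes were higher, 4 of 7 other sterol branch genes, 3 of 6 uptake and transfer genes and 1 of 5 other genes of the SREBP machinery, and none of these was lower. *Fdps*, which encodes farnesyl diphosphate synthase, was higher by 1.80 ± 0.17, with 199 and 115 CPM in goblet cells against 65.0 and 27.4 CPM in stem cells. *Msmo1*, which encodes the methylsterol oxidase that follows *Cyp51*, was higher by 1.75 ± 0.16, with 131 and 51.0 CPM in goblet cells against 25.8 and 9.35 CPM in stem cells. In both genes the goblet cells of each mouse stood above the stem cells of both. In stem cells against the other 8 types, where 15.4% of all genes were higher and 10.2% lower, 1 of 6 other mevalonate genes was higher (*Acat2*, by 0.59) and 1 lower (*Fdps*, which fell by 0.64). Of 7 other sterol branch genes 2 were lower, *Sc5d*, which fell by 1.58, and *Msmo1*, which fell by 1.33. Of 6 uptake and transfer genes 2 were lower, among them *Npc1l1*, which fell by 0.93, and of 5 other genes of the SREBP machinery none passed.

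In enterocytes against stem and TA cells, where 31.9% of all genes were higher and 25.8% lower, 3 of the 5 other SREBP machinery genes were higher: *Insig2* (1.16 ± 0.18), *Srebf1* (0.57 ± 0.19) and *Mbtps1* (0.39 ± 0.17). Of 6 other mevalonate genes 2 were higher, *Mvd* (0.67 ± 0.20) and *Fdps* (0.56 ± 0.21). Of 7 other genes of the sterol branch 5 were higher, led by *Sc5d* (2.08 ± 0.18), *Msmo1* (1.10 ± 0.20), *Dhcr7* (0.96 ± 0.19) and *Hsd17b7* (0.77 ± 0.27). *Nsdhl* (0.18 ± 0.20) and *Tm7sf2* (0.62 ± 0.30) did not pass.

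Genes that carry sterols into and out of enterocytes were among the listed genes with the largest values. *Npc1l1*, the importer of dietary cholesterol, was higher by 3.61 ± 0.19 and had 249.5 and 164 CPM in enterocytes against 18.5 and 8.73 CPM in stem cells. *Stard4*, a sterol carrier, was higher by 1.10 ± 0.15, and these were the 2 called of 6 uptake and transfer genes. Of the 9 genes of efflux, storage and LXR, the sterol-sensing nuclear receptor, 7 were tested and 6 were higher. *Abca1* (5.35 ± 0.45), *Soat2* (3.12 ± 0.20), *Abcg8* (2.93 ± 0.20) and *Abcg5* (2.92 ± 0.18) led these, whereas *Soat1*, which encodes the other cholesterol esterifying enzyme, was lower (-4.46 ± 0.41). *Soat1* had 1.29 and 0.187 CPM in enterocytes against 84.1 and 26.2 CPM in stem cells. The value of 0.187 CPM in replicate 2 lies under the 0.561 CPM that a count of 0 allows there, so the size of the change is uncertain. In replicates 1 and 2 alone *Abca1* gave 4.16 and 3.12, and *Soat1* -3.96 and -4.05. Of 7 tested genes of fatty acid synthesis, the sister pathway, 2 were higher, *Me1* (2.99 ± 0.26) and *Elovl6* (1.27 ± 0.20), and 2 were lower, *Acly* (-0.96 ± 0.19) and *Fasn* (-0.53 ± 0.22).

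**Figure D5:**
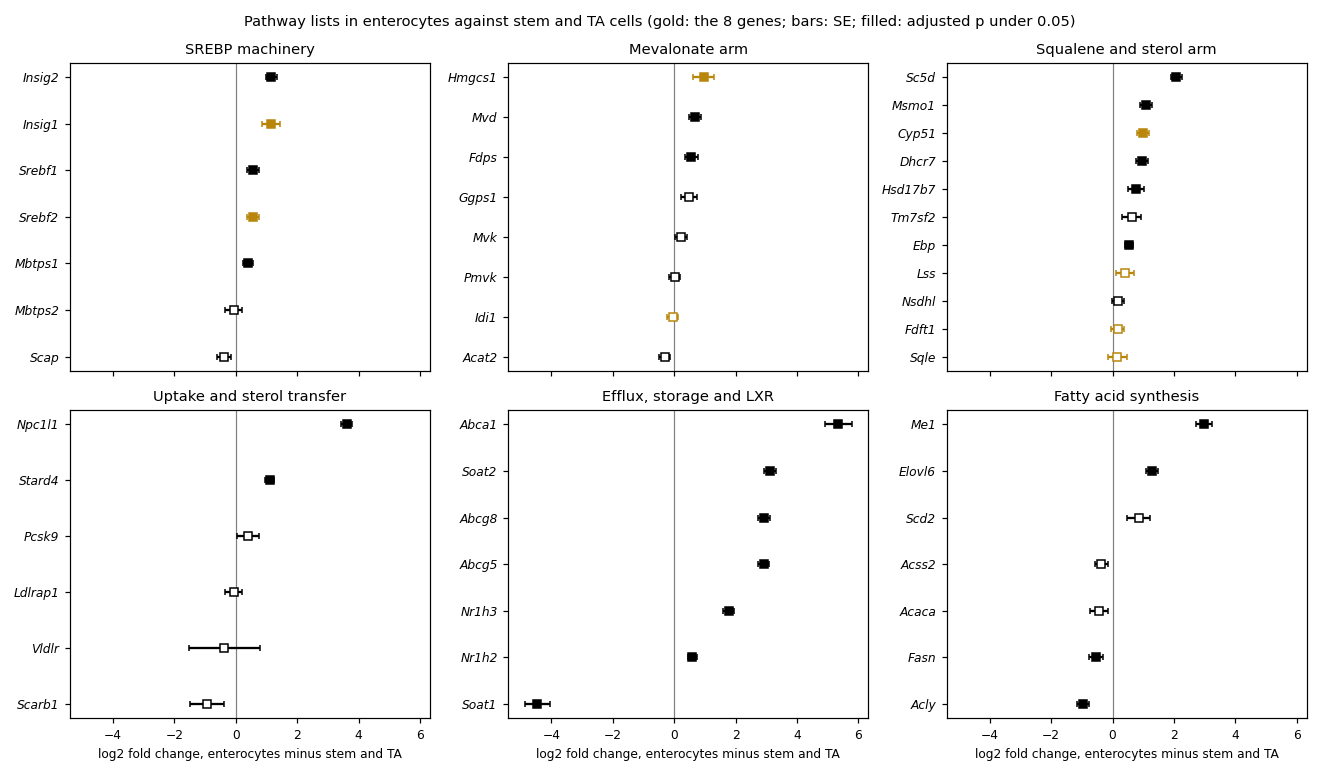
Log2 fold change (x axis) of listed genes of 6 pathway groups (y axis) in enterocytes against the mean of stem and TA cells, with SE bars, filled squares where the edgeR adjusted P is under 0.05, and gold for the 8 genes. The importer *Npc1l1* (3.61) and the exporters *Abca1*, *Abcg5* and *Abcg8* (2.92 to 5.35) lie to the right of all plotted genes of the mevalonate and sterol arms, *Me1* of fatty acid synthesis (2.99) lies among them, and *Soat1* (-4.46) is farthest to the left.

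Promoters are shown because SREBP2 acts through them together with the factors NF-Y and Sp1. RefSeq promoter windows (GRCm38.p6, from 250 bases before to 50 bases after the transcript start) were available for 6 of the 8 genes, *Srebf2*, *Insig1*, *Hmgcs1*, *Idi1*, *Lss* and *Cyp51*. They were searched on both strands for CCAAT (the NF-Y motif), GGGCGG (Sp1), CACGTG (an E-box) and TCACNCCAC (a form of the sterol regulatory element). *Hmgcs1*, *Insig1* and *Cyp51* were called higher in goblet cells against the other 8 types and in enterocytes against stem and TA cells. The windows of these 3 genes follow 5′ to 3′ on the gene's strand, with every match of the 4 motifs in capitals, as found on either strand.
Hmgcs1, chr13:119690101-119690400, plus strand: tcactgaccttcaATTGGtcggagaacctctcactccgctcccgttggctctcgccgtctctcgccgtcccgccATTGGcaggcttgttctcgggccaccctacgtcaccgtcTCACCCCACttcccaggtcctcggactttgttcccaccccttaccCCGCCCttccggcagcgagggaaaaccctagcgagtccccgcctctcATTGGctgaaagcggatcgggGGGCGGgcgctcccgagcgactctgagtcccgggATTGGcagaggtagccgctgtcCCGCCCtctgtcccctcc
Insig1, chr5:28071162-28071461, plus strand: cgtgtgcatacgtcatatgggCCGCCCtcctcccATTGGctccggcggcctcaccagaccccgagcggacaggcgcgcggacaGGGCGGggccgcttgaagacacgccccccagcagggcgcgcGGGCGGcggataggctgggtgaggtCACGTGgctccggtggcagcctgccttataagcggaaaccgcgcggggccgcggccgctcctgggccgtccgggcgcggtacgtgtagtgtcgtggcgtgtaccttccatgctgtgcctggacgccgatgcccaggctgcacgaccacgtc
Cyp51, chr5:4104648-4104947, minus strand: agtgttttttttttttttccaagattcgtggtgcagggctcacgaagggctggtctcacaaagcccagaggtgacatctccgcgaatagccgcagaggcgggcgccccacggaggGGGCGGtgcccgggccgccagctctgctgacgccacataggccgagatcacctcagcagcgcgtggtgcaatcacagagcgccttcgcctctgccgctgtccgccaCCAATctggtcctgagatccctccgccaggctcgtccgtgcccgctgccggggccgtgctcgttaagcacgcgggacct
No base of these windows belonged to more than 1 motif. The *Hmgcs1* window held 4 CCAAT, 3 GGGCGG and 1 TCACNCCAC match, that of *Insig1* 1, 3 and none, with 1 CACGTG, and that of *Cyp51* 1 CCAAT and 1 GGGCGG. All 6 windows held both CCAAT and GGGCGG, which 12.8% of the 32851 promoters in the reference do. TCACNCCAC was found in 1 of the 6, that of *Hmgcs1*, and in 1.24% of all promoters, and CACGTG in 1 of the 6, that of *Insig1*, and in 7.15%. These are matches of letters in a fixed window, and binding was not measured.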

How the data were processed

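Single-cell RNA of jejunal crypts was captured with 10x 3′ chemistry. The authors aligned reads to mm10 with Cell Ranger (3.0.1 per the labels), kept cells with at least 1500 genes and at most 25% mitochondrial reads, removed doublets and annotated types with Seurat (3.2.1 per the labels). The deposited counts are UMIs per gene and barcode; of 7665 and 1251 barcodes, 2325 and 1229 passed that filter and 2082 and 1193 carry an annotation. The methods name an ambient RNA correction, but whether these counts carry it is not given in the sources used here, so levels may hold ambient RNA. UMI totals and gene numbers matched the annotation in 1358 of 3275 cells of the matrices and in all 3275 of the deposited whole-study count table. That table has 16751 gene rows, against 27998 in the matrices, and holds 99.99% of the matrix UMIs of the kept cells. Each of the 8 genes had 1 row there with the same counts as in the matrices. The 2937 columns of other cells in each table of the whole study were not used. Counts were summed per mouse and type and tested with edgeR 4.0.16 (TMM, filterByExpr, robust quasi-likelihood, two-sided, adjusted P under 0.05, 8 residual degrees of freedom), with type and mouse as terms, after a check on simulated counts. The sums pair by mouse, because all types of a replicate come from 1 animal. DESeq2 1.42.0 was an alternative. Intervals are exact Poisson at 95% and cover counting error only, and the floor is 3 counts. The 8 genes, the lists and the tests were chosen with earlier results of these data known. Named genes are the 8, listed pathway genes, and the 10 with the most similar pattern. Some genes of the lists are not reported here, and list counts leave them out.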

Additional observations from a re-analysis of the deposited data

Results flagged for a closer look

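All 8 genes were also found in the barcodes that carry no annotation, which no comparison above used: 5583 barcodes of replicate 1 with a median of 1581 UMIs, and 58 of replicate 2 with a median of 19374.5 UMIs. Each was above the level that a count of 0 allows. *Srebf2* had 23.3 and 15.9 CPM there in replicates 1 and 2, *Insig1* 20.5 and 10.6, *Hmgcs1* 63.6 and 20.5, and *Sqle* 22.2 and 8.60. *Fdft1* had 21.3 and 17.2 CPM, *Idi1* 35.6 and 15.2, *Lss* 5.62 and 4.63, and *Cyp51* 36.7 and 15.9. Which cells these barcodes hold was not tested.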

How the results depend on the processing

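With 1 library per mouse the spread rests on 2 animals, and 35 of 160 values rest on fewer than 10 UMIs. Of the 71 alternative values of single genes in goblet cells against the other types, 69 kept their direction and their side of the threshold, and values ranged from 0.35 to 1.88. *Sqle* lost its call with no replicate block (1.30, edgeR adjusted P = 0.0942), and *Srebf2* gained one with Paneth cells left out (0.55). With library totals and Paneth cells left out, which those values do not include, 7 genes were higher, beside 1236 of all 10801 genes tested. *Srebf2* gave 0.04 and *Idi1* 0.51, and the median of the 8 was 0.88, beside -0.51 for all genes. With no replicate block (the mouse left out as a term) the 8 genes that varied between types became 3, the 4 higher in enterocytes than in stem and TA cells 0, the 4 lower in stem cells 1, the 2 higher in Paneth cells 1, and those lower in EEC or higher in tuft cells 0. Genes called between enterocytes and stem and TA cells went from 6350 to 3842. Of all 11013 genes, 5692 then varied between types, 451 were lower in stem cells and 1321 higher in Paneth cells. In enterocytes 2199 were higher than in stem and TA cells, in EEC 286 were lower and in tuft cells 714 higher. Goblet cells then exceeded stem cells for 5 genes, and TA cells and EEC for 2. They exceeded enterocytes, goblet progenitors and secretory progenitors for 1, and Paneth and tuft cells for 0. The shares of all genes were 11.5% against stem cells, 12.6% against TA cells, 11.3% against enterocytes and 4.49% against goblet progenitors. The share was 4.46% against secretory progenitors, 7.02% against EEC, 3.6% against Paneth cells and 7.45% against tuft cells.

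With library totals alone 2 genes were higher in enterocytes than in stem and TA cells (median 0.14) and 2 lower in stem cells. In TA cells 2 were higher and in goblet progenitors 4, with none in the main test for either. In EEC 0 were lower, and in Paneth cells 0 were higher and 8 lower. Of all 11013 genes, 2270 were then higher in enterocytes, 499 lower in stem cells, 5988 higher in TA cells and 5506 higher in goblet progenitors. In Paneth cells 144 were higher and 9676 lower, and in EEC 78 were lower. Goblet cells then exceeded TA cells for 3 genes, goblet progenitors and EEC for 2, secretory progenitors and tuft cells for 1 and Paneth cells for 8. The shares of all genes were 12.8% against TA cells, 6.24% against goblet progenitors and 5.38% against EEC. Against secretory progenitors, tuft cells and Paneth cells they were 4.68%, 6.58% and 85.6%. Thinned to 5000 UMIs per cell, where *Lss* fell below the filter, 5 genes varied between types. Then 1 was higher in enterocytes than in stem and TA cells, 1 lower in stem cells and 1 higher in TA cells. In Paneth or tuft cells 0 were higher, and in EEC 1 was lower. Stem cells were lowest in 5 of 16 pairs of gene and mouse, from 8. Of all 8236 genes tested when thinned, 6003 varied, 2337 were higher in enterocytes, 468 lower in stem cells and 1635 higher in TA cells. In Paneth cells 311 were higher, in tuft cells 858, and in EEC 665 were lower. In enterocytes against all other types the 1 higher gene became 0 with DESeq2, without the block and when thinned, and 2 without a filter on low counts. Of all 11013 genes, 2964 were higher there with DESeq2 and 2409 without the block. When thinned 2392 of 8236 were higher, and without a filter 3768 of 17626. The 1 lower gene became 0 with library totals, DESeq2, no block, Paneth cells left out, thinning and the stricter cell filter. With library totals 2257 of all 11013 genes were lower, with DESeq2 3080 and with no block 1533. With Paneth cells left out 2959 of 10801 were lower, with thinning 1141 of 8236 and with the stricter cell filter 2528 of 10742. The stricter cell filter or no filter gave 1 gene higher in TA cells, the stricter filter 1 higher in Paneth cells, DESeq2 0 higher in tuft cells, and leaving out Paneth cells 1 lower in EEC and 4 of 10 similar genes. Of all genes, 2637 of 10742 were higher in TA cells with the stricter filter and 3032 of 17626 without a filter. In Paneth cells 1148 of 10742 were higher with the stricter filter. In tuft cells 1195 of 11013 were higher with DESeq2, and in EEC 1230 of 10801 were lower with Paneth cells left out.

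Directions turned for single genes. In enterocytes against stem and TA cells *Sqle* gave -0.19 with library totals and -0.16 when thinned, and *Fdft1* -0.17 with library totals. Without replicate 2 and without replicate 1 *Sqle* gave -0.22 and 0.61, *Fdft1* -0.087 and 0.36, *Idi1* -0.33 and 0.23, and the median of the 8 was 0.34 and 0.63. In stem cells *Idi1* gave 0.38 and -0.20. In Paneth cells library totals gave *Srebf2* -2.55, *Insig1* -1.17, *Hmgcs1* -2.27, *Sqle* -3.01, *Fdft1* -2.44 and *Cyp51* -2.22, and the stricter filter *Sqle* -0.29. There, without replicate 2 and without replicate 1, *Srebf2* gave 1.27 and -0.15, *Sqle* 0.78 and -2.48, and *Idi1* 0.025 and -1.28. In enterocytes against all other types *Hmgcs1* gave -0.11 and 1.11, *Sqle* -0.51 and 0.46, and *Lss* -0.012 and 0.71. With 1 mouse left out no spread remains, so those values carry no test, and the test of variation between types was not run for single mice. The causes were not tested.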
